A study of Bos taurus with 43 samples.

Results

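The genes described here are 7 genes of white blood cells, CLEC12A, FGD2, CD48, PTPRC, CD14, CD3E and CD68, of 19743 distinct gene names on a bovine oligonucleotide array. They were read in the biceps brachii muscle of 43 male cattle, 1 single-colour array for each animal. The genes were selected on signals of these same arrays: CLEC12A, FGD2 and CD48 ranked 2, 4 and 11 of 16360 probes by p between the positive animals and the unknown animals of the same slides, and the other 4 are general markers of leukocytes. Differences that involve the positive animals are therefore given as a description with no test of the members. The 4 positive animals (S21, S54, S56 and S57) carry the GEO label of suspected corticosteroid treatment, and the study classed these beef cattle as positive by thymus histology and by dexamethasone residues in urine. The drug dose, the schedule and the time since the last dose were not known for them. The 21 unknown animals were commercial cattle of unknown treatment, and most of the commercial animals, the positive ones among them, were Charolais, Limousine or crosses of the pair, though the breed of each was not given in the sources used here. The study detected no dexamethasone in the urine of the unknown animals. It proposes that those whose expression profiles clustered with the positive animals might have been treated too. Of the negative controls, 5 were untreated Charolais × Limousine cross-breeds of 1 age (K7, K8, K10, K11 and K12) and 13 were untreated Holstein animals of several ages (animal numbers beginning with C). Holstein breed therefore went with 1 control group, both control groups came from earlier experiments, and every group is a set of separate animals. All 4 positive animals lay on slides 9 and 10, with the unknown animals 50 and 81 on slide 9 and 78 and 79 on slide 10. The share of spots well above background ran from 74.9% to 89.4% in the positive animals, from 63.6% to 82.3% in the 17 unknown animals on other slides, from 62.9% to 73.6% in the cross-breed and from 62.3% to 73.2% in the Holstein controls. The positive animals shared no slide or scan day with either control group, and the 5 cross-breed arrays were read on scanners 1 and 2 while all other arrays were read on scanner 3, so batch and group cannot be told apart in comparisons with the controls.

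Leukocytes reach skeletal muscle through its capillaries, and resident macrophages lie between the fibres. Glucocorticoids such as dexamethasone bind the glucocorticoid receptor in the cytoplasm, which then moves to the nucleus and changes transcription. They are known for lowering inflammatory signalling and the number of circulating lymphocytes and monocytes. In whole muscle RNA, fewer cells of a type and less RNA per cell cannot be told apart. The tissue label was checked against 9 genes of skeletal muscle fibres, and all 9 were well above background on both spots of every array of the 4 groups, with MB, the oxygen store myoglobin, as the brightest of the list.

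Each member had 1 probe printed in 2 spots. CLEC12A (probe A_73_105516), FGD2 (A_73_101453), CD48 (A_73_101178) and CD68 (A_73_106271) were named through the gene ID on the array, CD14 (A_73_116002) and CD3E (A_73_104727) through the accession, and PTPRC (A_73_104131) through the probe description. All 7 probes passed the filter on dim probes. Values are log2 signals after normalization across the arrays, and a spot counts as well above background when the scanner software marked it so. Values of different probes are on no common scale. The brightest gene of a list is the one whose probe had the highest signal, which is no ranking of expression.

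**Figure D1:**
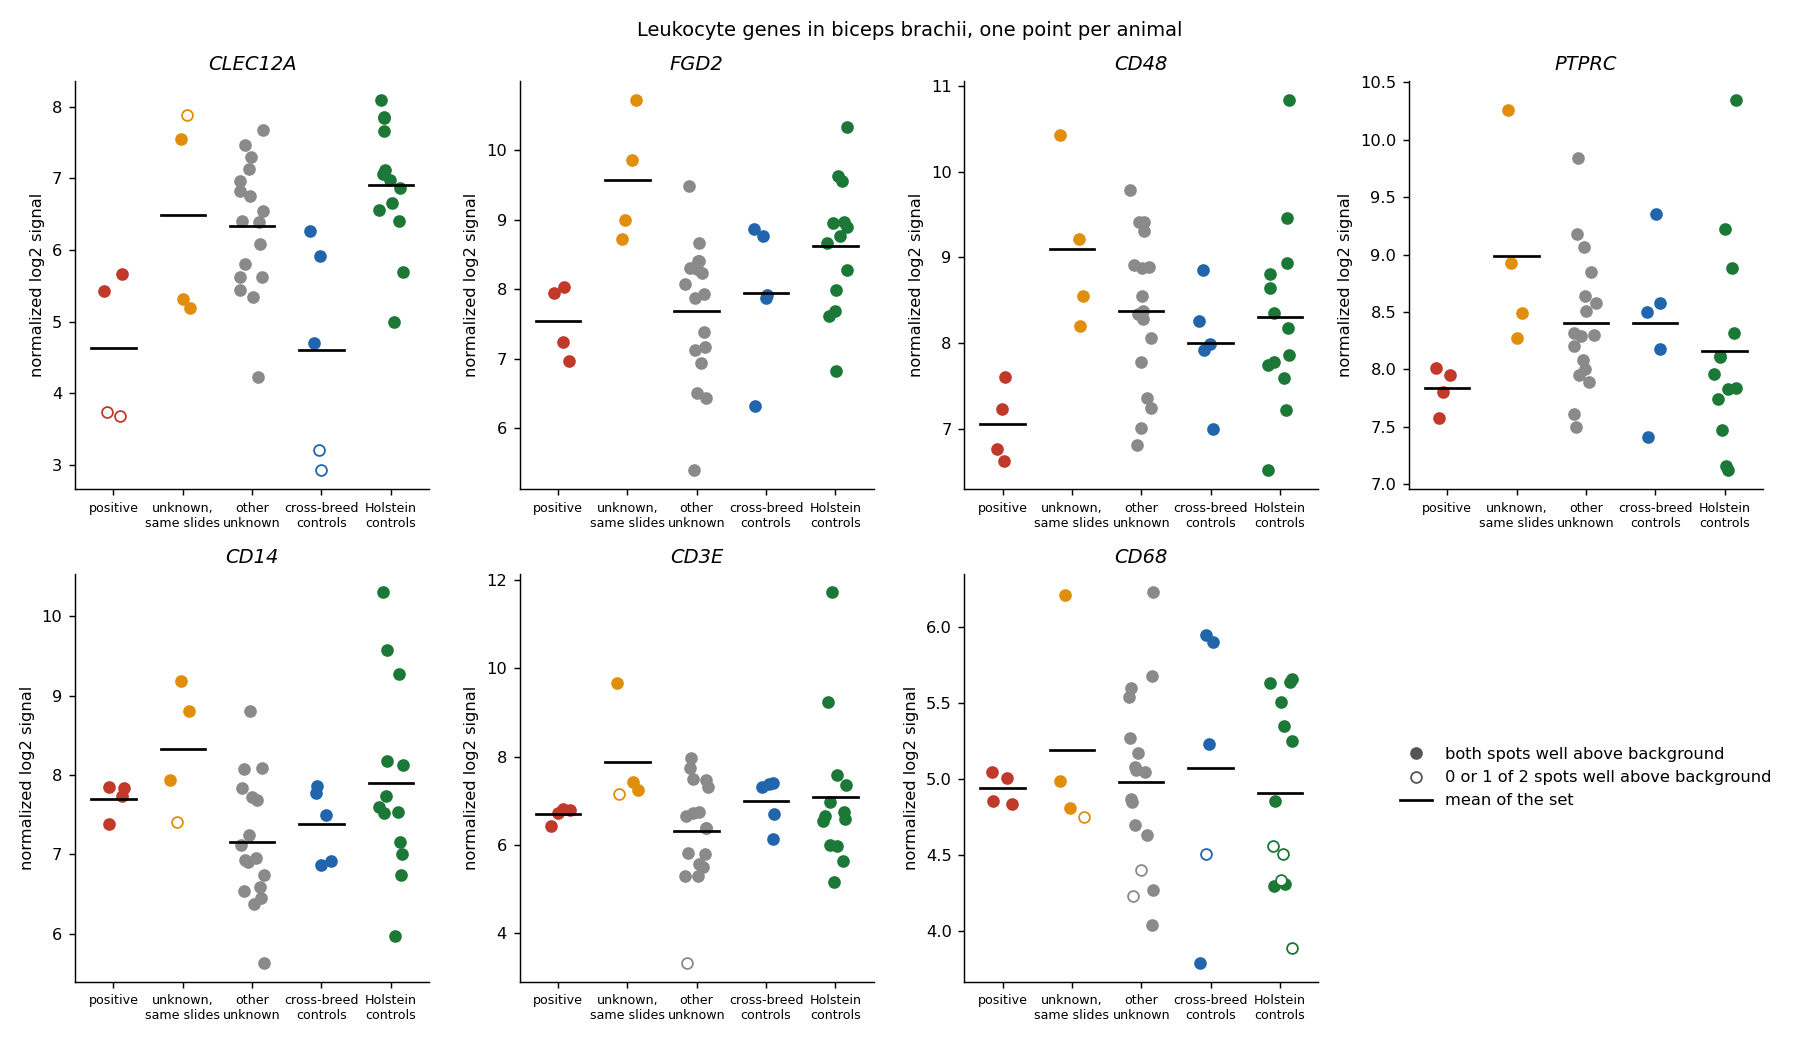
Normalized log2 signal (y axis) of the 7 genes, 1 point per animal, in the positive animals (n = 4), the unknown animals on the same slides (n = 4), the 17 other unknown animals, the cross-breed controls (n = 5) and the Holstein controls (n = 13). Lines are means and open points mark arrays on which 0 or 1 of the 2 spots was well above background; the 4 positive animals lie low for CD48, between 6.62 and 7.60, and inside the range of the cross-breed controls for CLEC12A.

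CLEC12A is an inhibitory C-type lectin receptor of monocytes, dendritic cells and granulocytes. Its signal in the positive animals was 5.43 in S21, 5.66 in S54, 3.68 in S56 and 3.73 in S57. Both animals of slide 10 were thus higher than both animals of slide 9, and on slide 9 the probe was well above background on neither spot in S56 and on 1 of 2 in S57. The cross-breed controls read 3.21 in K7, 6.27 in K8, 4.70 in K10, 5.92 in K11 and 2.92 in K12. These controls spanned the whole range of the positive animals, and K7 and K12 were not well above background. In the Holstein controls the lowest, median and highest signals were 5.00, 6.97 and 8.10. The 17 unknown animals on other slides had 4.23, 6.40 and 7.68. The mean of the positive animals, 4.63 ± 1.07 (SD, n = 4), was next to that of the cross-breed controls, 4.6 ± 1.52 (SD, n = 5), and the other 3 sets followed 1.70 log2 units or more higher. Among the 3 upper sets, other unknown, unknown on the same slides and Holstein, neighbours in the order did not differ by more than the larger SD.

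FGD2, an exchange factor that loads the small GTPase CDC42 with GTP in antigen-presenting cells, was well above background on every array. Its signal was 7.95 in S21, 8.03 in S54, 7.24 in S56 and 6.97 in S57. The unknown animals on the same slides read 8.99 in animal 50, 10.73 in 78, 9.86 in 79 and 8.72 in 81. All 4 lay above all 4 positive animals, and the value of 78 was the highest of the 43. The cross-breed controls read 7.91, 8.77, 7.88, 8.86 and 6.32 (K7, K8, K10, K11, K12), on both sides of the positive animals. The 17 other unknown animals ranged from 5.39 to 9.48 with a median of 7.93, and 2 of the 4 positive animals lay below that median. The positive animals differed from these 17 by only -0.13 in the mean, whereas the unknown animals of the shared slides were higher than the same 17 by 1.90. In the order of means, positive, other unknown and cross-breed animals each differed from the next by less than the larger SD. The unknown animals of the shared slides stood last at 9.58 ± 0.91 (SD, n = 4), 0.95 above the Holstein controls, whose SD was also 0.95.

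CD48, a SLAM family protein held in the membrane of most leukocytes by a lipid anchor, is the ligand of CD244 on natural killer cells. It read 7.60 in S21, 7.23 in S54, 6.76 in S56 and 6.62 in S57. Of the 43 animals only the Holstein animal C44, at 6.51, was lower than S57 and S56. The unknown animals of the same slides read 8.55 in 50, 10.43 in 78, 9.21 in 79 and 8.20 in 81, all above the positive animals. The cross-breed controls read 7.99, 8.26, 7.92, 8.85 and 6.99 (K7, K8, K10, K11, K12). Only K12 of these fell inside the range of the positive animals. The Holstein controls had a lowest, median and highest signal of 6.51, 8.17 and 10.84, and the 17 other unknown animals of 6.81, 8.37 and 9.79. The positive mean, 7.05 ± 0.45 (SD, n = 4), was lowest in the order of the 5 sets, 0.95 below the cross-breed controls, which is larger than either SD. The 4 other sets did not differ from their neighbours in the order by more than the larger SD.

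PTPRC encodes CD45, the receptor tyrosine phosphatase of all nucleated blood cells, and is the most general marker of leukocytes among the 7. It read 7.95 in S21, 7.80 in S54, 8.01 in S56 and 7.58 in S57. The unknown animals of the same slides read 8.27 in 50, 10.26 in 78, 8.93 in 79 and 8.49 in 81. The highest positive animal, S56, lay below the lowest of these, animal 50. The cross-breed controls ranged from 7.41 to 9.35, the Holstein controls from 7.12 to 10.35 and the 17 other unknown animals from 7.50 to 9.84. The positive animals lay within each of these 3 ranges, and their SD of 0.19 was smaller than the SDs of the other sets, which ran from 0.60 to 0.89.

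CD14 and CD68 mark monocytes and macrophages: CD14 binds lipopolysaccharide for the TLR4 and LY96 receptor, and CD68 is a glycoprotein of lysosomes. CD14 read 7.38 in S21, 7.74 in S54, 7.85 in S56 and 7.84 in S57, and 8.80 in 50, 9.18 in 78, 7.41 in 79 and 7.94 in 81. Of the 4 unknown animals of the shared slides, only animal 79 fell within the range of the positive ones. All 4 positive animals lay above the median of the 17 other unknown animals, 6.96, and inside the range of the Holstein controls, 5.97 to 10.30. CD68 read 5.01 in S21, 5.05 in S54, 4.86 in S56 and 4.84 in S57, and 4.99 in 50, 6.21 in 78, 4.75 in 79 and 4.81 in 81, so that the 2 sets overlapped. The means of CD68 in the 5 sets lay between 4.91 and 5.19, and each gap between neighbours was under the larger SD. The CD68 probe was near its limit of detection, since it was well above background on both spots of 9 of the 13 Holstein arrays.

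CD3E is a chain of the CD3 complex through which the T cell receptor signals. It read 6.81 in S21, 6.73 in S54, 6.79 in S56 and 6.43 in S57. The unknown animals of the same slides read 7.42 in 50, 9.68 in 78, 7.15 in 79 and 7.24 in 81, above all positive animals. All 4 positive animals lay above the median of the 17 other unknown animals, 6.39, and their mean was 0.37 higher than the mean of those animals. The Holstein controls ran from 5.16 to 11.73 with a median of 6.65, and C17 held the highest CD3E, CD48 and PTPRC signals of all 43 animals. The means of CD3E in the 5 sets, from 6.32 in the 17 other unknown animals to 7.87 in the unknown animals of the shared slides, each differed from the next by less than the larger SD.

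The comparison within slides is the one in which slide and scan day cannot differ between the positive and the unknown animals. All 7 members had a fitted difference below 0, beside 47.5% of all 16360 probes tested, but that of CD68 was 0.25 with quantile normalization and 0.08 without animal 78. CD48 was lower in the positive animals by 2.04 (SE 0.29), FGD2 by 2.03 (SE 0.23) and CLEC12A by 1.86 (SE 0.18) on the log2 scale, which corresponds to 4.12-fold, 4.08-fold and 3.62-fold. CD3E was lower by 1.18 (SE 0.50), PTPRC by 1.15 (SE 0.35), CD14 by 0.63 (SE 0.38) and CD68 by 0.25 (SE 0.30). In this comparison CLEC12A, FGD2 and CD48 are among the lowest of all probes by p, as given above, so the values are a description only. Of the 7, FGD2, CD48, PTPRC and CD3E had all positive animals below all 4 unknown animals, a pattern that 3.89% of all probes showed. CLEC12A was lower within each slide as well but overlapped across the slides, so that 5 members were lower without overlap within each slide, against 6.60% of all probes. CLEC12A, FGD2 and CD48 stand near the top of this comparison. These counts therefore follow in part from the choice of members and are not read as a result beside the shares. Of the 4 other members, PTPRC and CD3E did not overlap.

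Slide by slide, the mean difference of CLEC12A was -1.54 on slide 9 and -2.17 on slide 10. For FGD2 it was -1.75 and -2.31, and for CD48 it was -1.68 and -2.40. PTPRC differed by -0.59 and -1.72, and CD3E by -0.72 and -1.65. Slide 10 thus had the larger difference for all 5 of these genes, and slide 10 holds animal 78, which was the highest or second highest of the 43 animals for FGD2, CD48, PTPRC, CD3E and CD68. CD14 differed by -0.52 and -0.74 but overlapped on slide 10, and CD68 differed by -0.05 and -0.45 and overlapped on both slides.

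**Figure D2:**
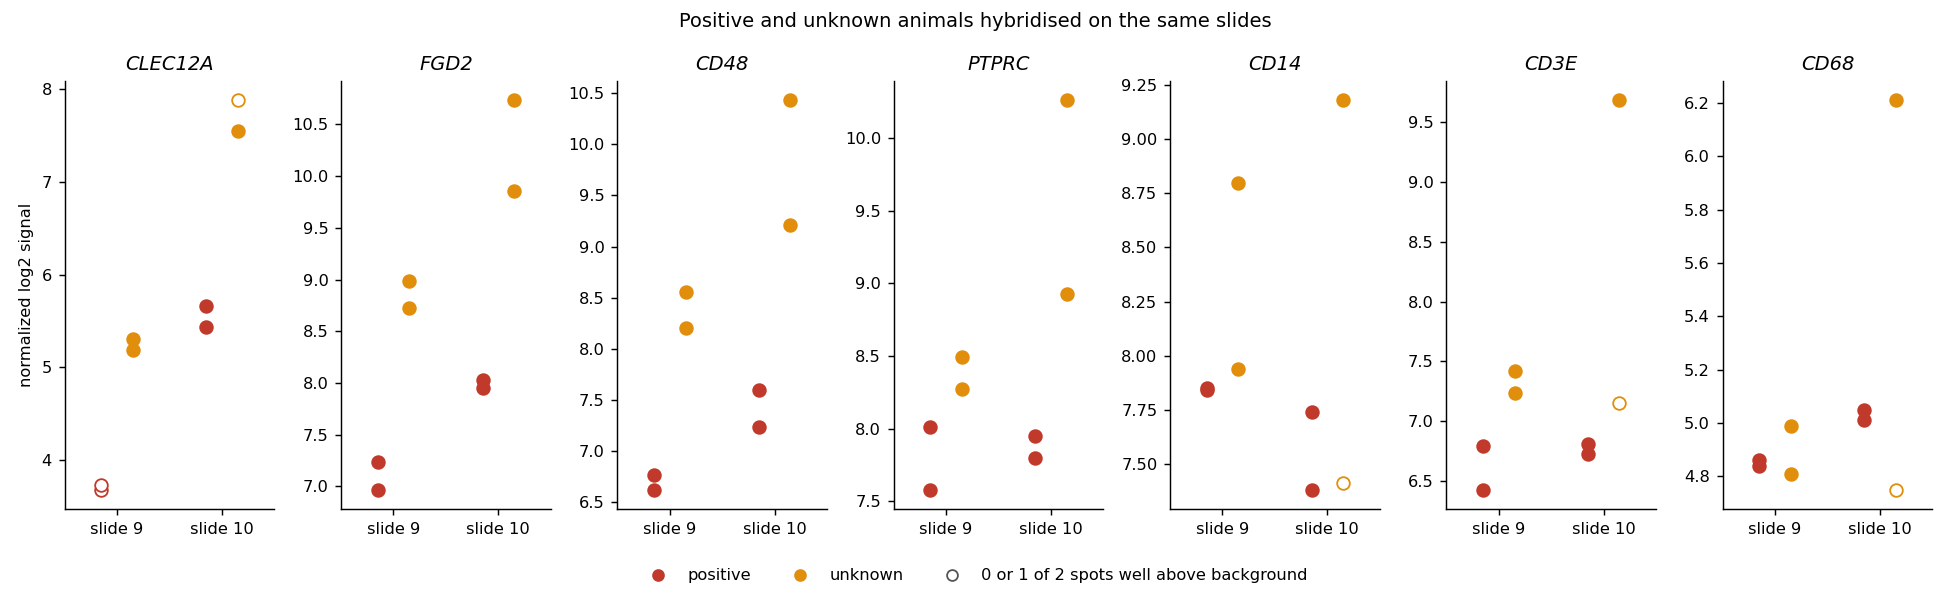
Normalized log2 signal (y axis) of each gene in the positive and the unknown animals that shared slides 9 and 10 (x axis, 2 positive and 2 unknown animals per slide). Open points mark arrays on which 0 or 1 of the 2 spots was well above background; FGD2, CD48, PTPRC and CD3E have every positive animal below every unknown animal.

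The size of these differences varied with single animals. Without animal 78 the difference of PTPRC was -0.77, that of CD3E -0.59, that of CD14 -0.25 and that of CD68 0.08, while those of CLEC12A, FGD2 and CD48 were -1.86, -1.80 and -1.73. The array of animal 79 was dim, with 40.2% of spots well above background against 74.9% to 97.3% on the other 7 arrays of the shared slides. On that array CD14, CD3E and CD68 were well above background on neither spot and CLEC12A on 1 of 2. Without animal 79 the differences of CLEC12A, FGD2 and CD48 were -1.73, -2.15 and -2.21, and CD14 changed to -0.96 and CD68 to -0.50. Then 5 of 7 members did not overlap, FGD2, CD48, PTPRC, CD14 and CD3E, beside 5.42% of all probes. This count too follows in part from the choice of FGD2 and CD48. Normexp background correction, which adds a constant to every signal and so compresses weak ones most, gave -0.19 for CLEC12A, -1.15 for FGD2 and -1.03 for CD48.

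Across all 16360 probes, limma with slide as a block called 0 probes between the positive and the same-slide unknown animals at a Benjamini-Hochberg adjusted p under 0.05 and at least a 2-fold change. The unadjusted p was under 0.05 for 1872 probes, and the lowest adjusted p was 0.0618. Without animal 79 the same fit called 9 probes, all lower in the positive animals. Of these, 4 belong to the leukocyte lists: LYZ, the antibacterial enzyme lysozyme (log2 difference -1.84, adjusted p = 0.0335), AIF1, an actin-binding protein of macrophages (-1.98, adjusted p = 0.0411), and the members CLEC12A and FGD2, which carry no test here. RNASE6, a ribonuclease of monocytes, was also among the 9, with -1.72 (adjusted p = 0.0335). It is in no leukocyte list, and the rest of the 9, not described here, are in none either. LYZ, AIF1 and RNASE6 are named here after their values were seen.

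Against the untreated cross-breed controls none of the 7 members was called, beside 28.1% of all probes, and none of the ranges was without overlap, beside 21.6% of probes that were lower in the positive animals without overlap. The members differed by 0.02 (SE 0.75) for CLEC12A, -0.40 (SE 0.48) for FGD2, -0.95 (SE 0.34) for CD48, -0.57 (SE 0.32) for PTPRC, 0.32 (SE 0.24) for CD14, -0.29 (SE 0.27) for CD3E and -0.14 (SE 0.40) for CD68. CD48 was just short of the 2-fold limit here. It was past the limits of a call with 75th percentile scaling (-1.03), quantile normalization (-1.22), cyclic loess on every pair (-1.20), the authors' table (-1.02), without S21 (-1.13) and without K12 (-1.20), and with cyclic loess on every pair PTPRC (-1.25) and CD68 were past them as well. The count of 0 therefore holds for the values as normalized here and not under those alternatives. CD48 did not reach the adjusted p limit with normexp background correction (-0.37), a common fit of all arrays, or slide or scan day as a random block. Nor did it reach that limit without S54, S56, S57, K7, K8, K10 or K11. These readings are a description and no test of CD48. Single control animals also moved the other members: FGD2 was at -0.81 without K12 and -0.17 without K11, PTPRC at -0.82 and -0.33, CD3E at -0.51 and -0.19, CD68 at -0.46 and 0.08, and CLEC12A at -0.40 without K12 and 0.44 without K8. CD14 was at 0.19 without K10, and at 0.03 with cyclic loess on every pair. CLEC12A went from 0.02 to -1.38 when cyclic loess was run on every pair of arrays, CD3E from -0.29 to 0.46 and CD68 from -0.14 to -2.30, and CD68 took the value 0.57 with 75th percentile scaling. The sign of these 3 differences therefore depended on the scaling.

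Against the Holstein controls CLEC12A was lower by 2.28 (SE 0.49), or 4.87-fold. It was the 1 member beyond the limits that 17.8% of all probes passed, which is a description and no test, since the positive animals were part of the choice. The difference was between -2.63 and -1.97 when each positive animal was left out and -0.65 with normexp background correction. Under other scalings further members were beyond the same limits, CD48 with quantile normalization (-1.41), cyclic loess on every pair (-1.42) and the authors' table (-1.34), FGD2 with cyclic loess on every pair (-1.57) and CD68 with the 2 scalings given below. CD48 was lower by 1.24 (SE 0.53) and FGD2 by 1.08 (SE 0.47). PTPRC differed by -0.33 (SE 0.43), CD14 by -0.20 (SE 0.58), CD3E by -0.40 (SE 0.82) and CD68 by 0.03 (SE 0.31). Without the Holstein animal C17, PTPRC was at -0.15 and CD3E at -0.01, and CD14 was at -0.09 without S21. No member had ranges without overlap, beside 8.04% of probes that were lower without overlap. CD68 changed sign with the scaling here too, from -2.35 with cyclic loess on every pair to 1.15 with 75th percentile scaling. Both control sets overlapped for every member, and their largest gap was CLEC12A, 2.31 higher in the Holstein than in the cross-breed controls. The positive animals are shared by these 3 comparisons, so the 3 sets of values are not independent of each other.

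**Figure D3:**
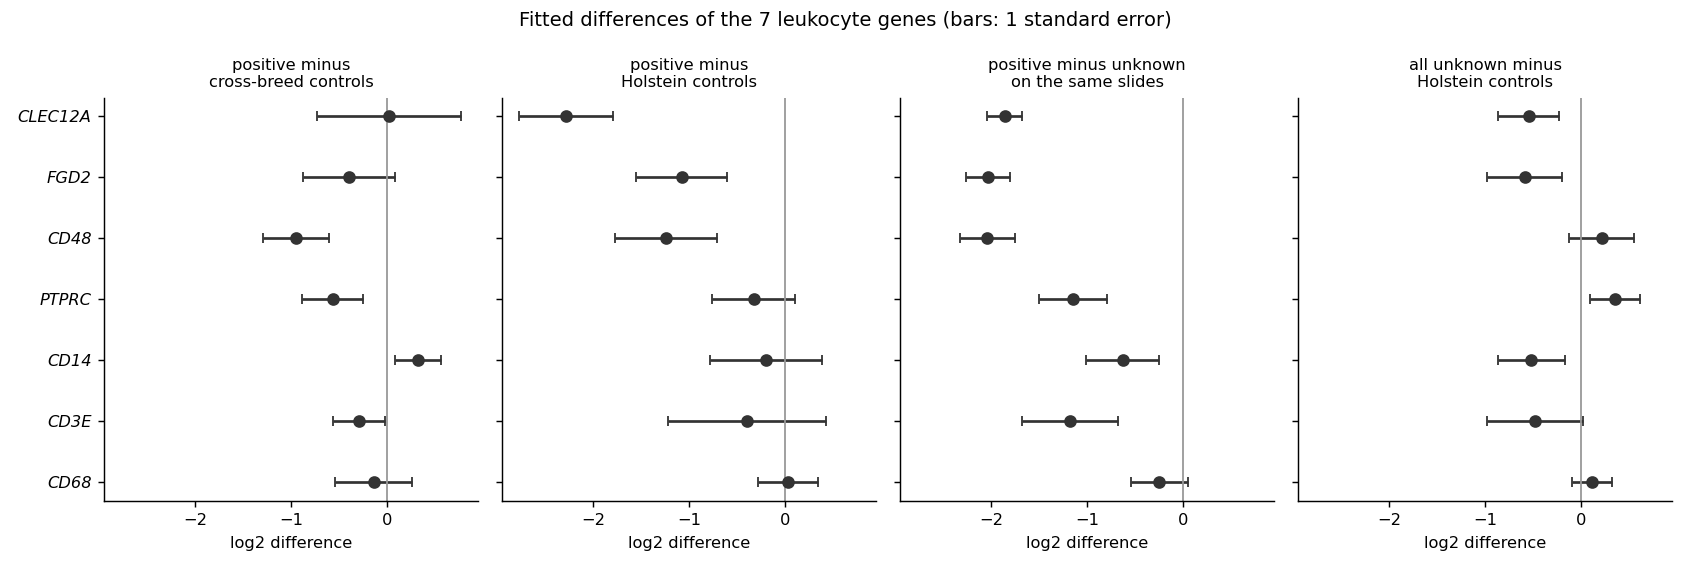
Fitted log2 differences (x axis) of the 7 genes (y axis) in 4 comparisons, with bars of 1 standard error. All 7 are below 0 against the unknown animals of the same slides, and CLEC12A lies at 0.02 against the cross-breed controls and at -2.28 against the Holstein controls.

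The unknown animals against the Holstein controls is the comparison that holds no positive animal. Of its 21 unknown animals, 4 belong to the comparison in which 3 members ranked high. The values over all 21 are therefore a description, and the members were tested without these 4. Over all 21, none of the 7 was beyond the limits that 11.1% of all probes passed. CLEC12A differed by -0.55 (SE 0.32), FGD2 by -0.59 (SE 0.39) and CD14 by -0.52 (SE 0.35). CD3E differed by -0.48 (SE 0.50), PTPRC by 0.35 (SE 0.26), CD48 by 0.21 (SE 0.34) and CD68 by 0.11 (SE 0.21). CD68 was at -0.85 when cyclic loess was run on every pair of arrays. Each difference was smaller than the SDs of both sets of animals. Without C17 none was beyond the limits either, with CD3E at -0.09, CD48 at 0.42, PTPRC at 0.53 and CD68 at 0.17. The spike-in RNAs, added to each sample as controls, were dim in the unknown animals 29, 39, 52, 61 and 76, at log2 signals of 7.36 to 8.83. Without the unknown animals with dim spike-in RNAs CD48 was at 0.47 and PTPRC at 0.55. In the test, without the 4 unknown animals of the shared slides, none of the 7 was called by limma. FGD2 then differed by -0.95 (adjusted p = 0.0299), under the 2-fold limit, CLEC12A by -0.58 (adjusted p = 0.146) and CD48 by 0.08 (adjusted p = 0.88), and the adjusted p of the other 4 lay between 0.091 and 0.82. No slide or scan day held both groups. With scan day as a random block in the fit of all 21, the limma adjusted p of FGD2 was 0.662 and that of CLEC12A 0.503.

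The wider lists of leukocyte genes hold 84 genes on the array, of which 68 passed the filter, 61 of them not members. Between the positive and the same-slide unknown animals 49 of these 61 differed by less than 0, with a median of -0.86 beside 0.02 for all probes, and 0 were called. The same-slide unknown animals had the highest mean signal of the 61 genes, 7.53. It was 6.78 in the positive animals, 7 in the 17 other unknown animals, 6.76 in the cross-breed and 7.07 in the Holstein controls. The positive and the 17 other unknown animals had 7.35 and 7.96 for the monocyte list, 6.4 and 6.41 for T and NK, and 6.67 and 6.17 for B and plasma. The 16 monocyte, macrophage and dendritic genes beside the members were all below 0, with a median of -1.48. Examples are CD163, the scavenger receptor for haemoglobin on macrophages, at -2.18 (SE 0.38), and C1QA, a chain of complement C1q and the brightest gene of that list, at -1.88 (SE 0.48). The median was -0.99 over 15 pan-leukocyte genes, of which LAPTM5, a lysosomal membrane protein of blood cells and the brightest of them, differed by -1.28 (SE 0.38). It was -0.62 over 16 T and NK genes, -0.38 over 8 granulocyte genes and 0.07 over 6 B and plasma cell genes. Of these lists, the monocyte list lay farthest below the median of all probes in this comparison. With its 4 members included, its median was -1.48 and stayed below 0 under the other ways of normalizing, at -0.64 with normexp and -1.73 with cyclic loess on every pair. That of the B and plasma cell list was -0.36 with 75th percentile scaling and -0.39 with cyclic loess on every pair, so its place near 0 depended on the scaling. The granulocyte median was -0.63 with 75th percentile scaling and -1.34 with cyclic loess on every pair, with all 8 genes below 0 in both. None of these list genes passed the test in this comparison. The size of the list differences rested in part on animal 78: without it the median of the 61 genes was -0.45, with 46 below 0, that of the pan-leukocyte genes -0.49, that of the T and NK genes -0.17 and that of the monocyte, macrophage and dendritic genes -1.14, beside 0 for all probes.

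**Figure D4:**
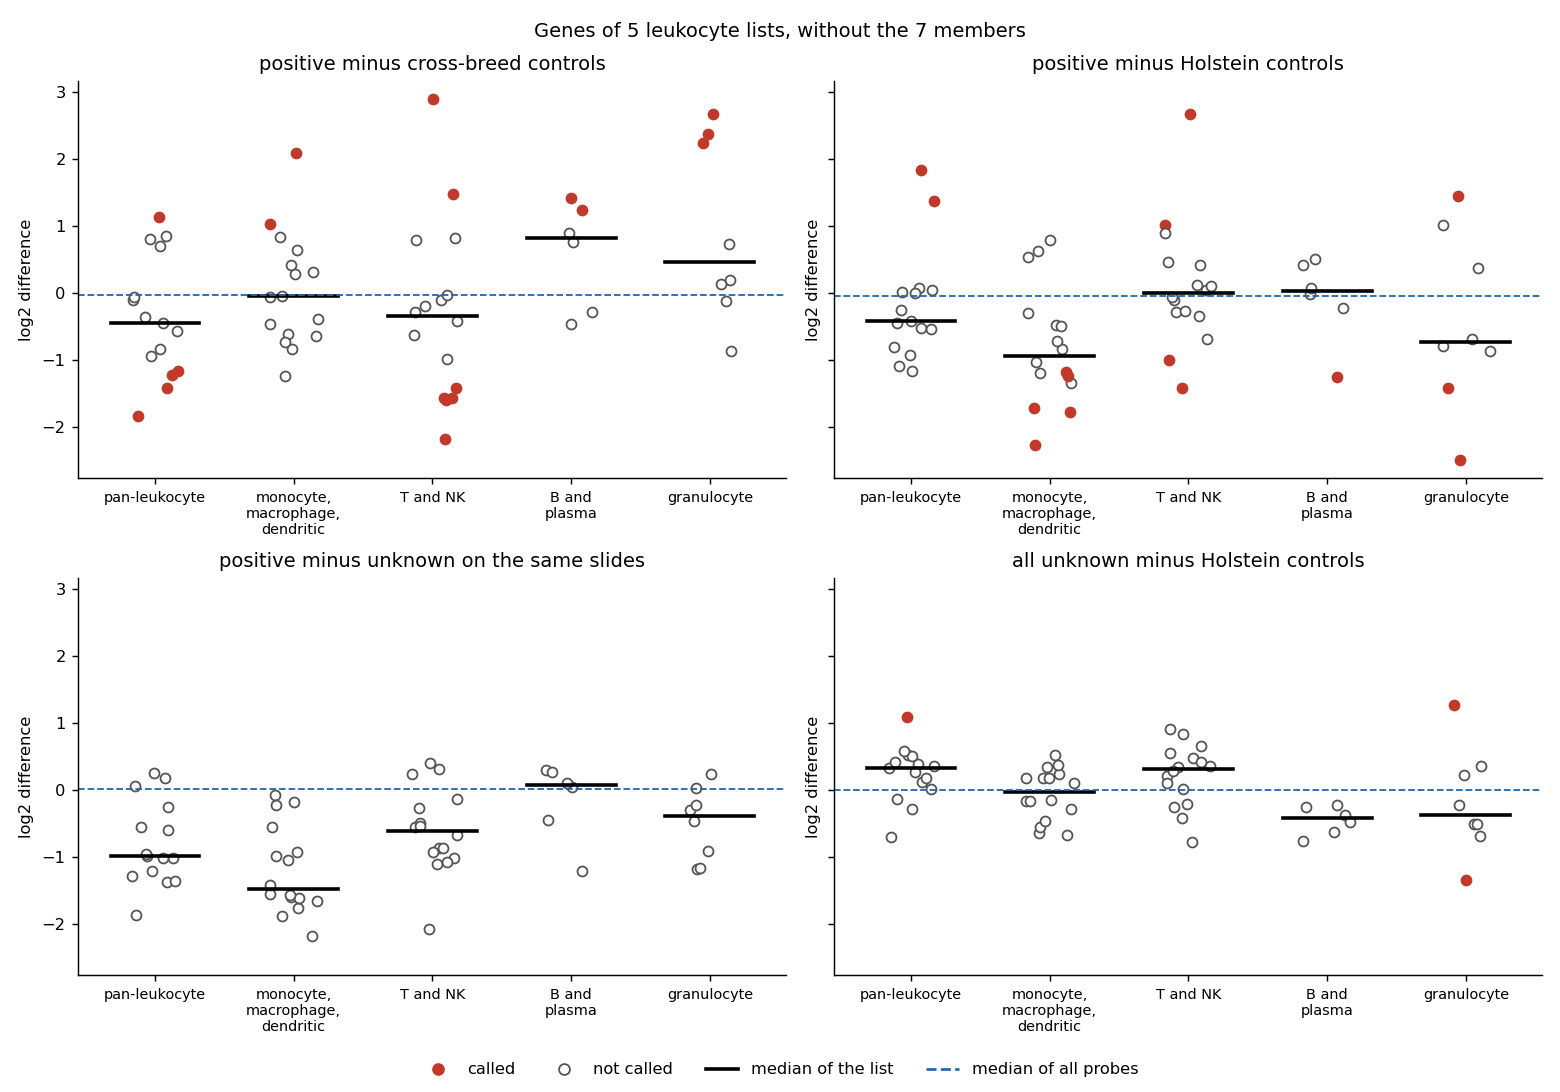
Fitted log2 differences (y axis) of the genes of 5 leukocyte lists (x axis), without the 7 members, in 4 comparisons. Filled points were called, black lines are list medians and the dashed line is the median of all probes; against the unknown animals of the same slides the monocyte, macrophage and dendritic genes have a median of -1.48.

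Against the cross-breed controls genes of the leukocyte lists were called in both directions, at shares near those of all probes. The counts are therefore not read as a change of the lists. Of the 61 genes, 10 were called higher, beside 14.4% of all probes, and 9 lower, beside 13.8%, with a median of -0.11. The genes called lower were of the pan-leukocyte and the T and NK lists. NCKAP1L, a part of the actin-regulating WAVE complex of blood cells, fell by 1.83 (adjusted p = 6.24e-05), ITGB2, the shared chain of the leukocyte integrins, by 1.41 (adjusted p = 0.00332), CD37 by 1.22 (adjusted p = 0.00259) and LCP1, an actin-bundling protein, by 1.16 (adjusted p = 0.0227). In the T and NK list CCL5, a chemokine of activated T cells, fell by 2.18 (adjusted p = 0.000604), LCK, the kinase of the T cell receptor, by 1.59 (adjusted p = 0.000876), CD8A by 1.57 (adjusted p = 0.000952) and PRF1, the pore-forming protein of cytotoxic cells, by 1.42 (adjusted p = 0.00106). Genes called higher were MRC1, the macrophage mannose receptor (log2 change 2.09, adjusted p = 0.00371), FCER1G (1.03, adjusted p = 0.00601), CD3D (2.89, adjusted p = 0.000439), CD28 (1.47, adjusted p = 0.000328) and DOCK2 (1.14, adjusted p = 0.00552). The granulocyte genes CSF3R (2.67, adjusted p = 9.8e-06), MPO (2.37, adjusted p = 9.65e-06) and S100A9 (2.23, adjusted p = 0.00328) were also higher. Within the T cell receptor complex, CD3D rose while CD3E had -0.29 and CD247, the zeta chain and brightest gene of the list, had -0.11 (adjusted p = 0.731). For CD3D, CD28, S100A9, MPO and CSF3R, 4 of the 5 cross-breed arrays were well above background on neither spot, so the size of these increases depends on signals near background. The same holds for the sizes of LCK and FCER1G. LCK was well above background on both spots in 1 of the 4 positive animals, and FCER1G on neither spot of 2 of the 5 cross-breed arrays. Without K12 the number called lower in the lists, members included, was 14, and with cyclic loess on every pair it was 19 with 3 called higher. Normexp background correction left 2 called lower and 1 called higher. A common fit of all arrays gave 5 lower and 9 higher, and 9 lower and 2 higher came from the authors' table. Both counts therefore depended on the processing.

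Against the Holstein controls 10 of the 61 genes were called lower, beside 9.41% of all probes, and 5 higher, beside 8.4%, with a median of -0.30. The monocyte, macrophage and dendritic list gave 5 of the 10. CD163 fell by 2.26 (adjusted p = 0.0013), C1QA by 1.77 (adjusted p = 0.0305) and C1QB by 1.72 (adjusted p = 0.0312), and the median of the 16 genes was -0.94. With the 4 members included, 6 of the 20 genes were called lower and 0 higher, against 4 lower and 3 higher with 75th percentile scaling, where the median was -0.45, 1 lower with normexp (-0.30) and 16 lower with cyclic loess on every pair (-1.80). S100A8, a calcium-binding protein of neutrophils and monocytes, fell by 2.49 (adjusted p = 0.00393) and LTF, the iron-binding lactoferrin of neutrophil granules, by 1.42 (adjusted p = 0.0117). JCHAIN, which joins the units of secreted IgA and IgM, fell by 1.25 (adjusted p = 0.0167) and CD2, an adhesion receptor of T cells, by 1.0 (adjusted p = 0.0471). The genes called higher were CD3D (2.67, adjusted p = 0.0116), DOCK2 (1.83, adjusted p = 0.000567), CSF3R (1.44, adjusted p = 1.16e-05), RAC2 (1.37, adjusted p = 0.0178) and CD28 (1.02, adjusted p = 0.0355). CD3D was well above background on neither spot of 9 of the 13 Holstein arrays, RAC2 of 10, CD28 of 8 and DOCK2 of 7, so the size of these increases depends on signals near background, and S100A8 was well above background on both spots in 1 of the 4 positive animals. Counting CLEC12A too, 11 list genes were called lower, and this number was 5 without S56 and 5 without S57. S56 and S57 had the lowest mean signal of the monocyte list among the positive animals, 6.92 and 6.68, against 7.76 in S21 and 8.05 in S54.

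Between the unknown animals and the Holstein controls, 2 of the 61 genes were called higher, beside 3.41% of all probes, and 1 lower, beside 7.71%. LTF fell by 1.35 (adjusted p = 0.000564), and RAC2 and KIT were the genes called higher. With scan day as a random block 0 list genes were called lower and 1 higher, and 569 of all probes were called. The median of the 61 was 0.12 beside 0 for all probes, but the lists went different ways. It was 0.33 over the pan-leukocyte genes, with 3 of 15 below 0, and 0.31 over the T and NK genes, with 4 of 16 below 0. It was -0.02 over the monocyte, macrophage and dendritic genes and -0.37 over the granulocyte genes. All 6 B and plasma cell genes were below 0 there, with a median of -0.42 and none called, and with 75th percentile scaling 5 of 6 were, with a median of -0.08.

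Partners of the members were read for their binding or signalling roles. For CD48, its receptor CD244 was lower than in the cross-breed controls by 1.16 (adjusted p = 0.0179), and differed by -0.76 from the Holstein controls (adjusted p = 0.139) and by -1.32 from the same-slide unknown animals (adjusted p = 0.167). SLAMF7, a relative of CD48 and CD244, was higher than in the cross-breed controls by 1.09 (adjusted p = 0.00203). CD2, another receptor of CD48, and CD58, the other ligand of CD2, both fell against the Holstein controls, CD58 by 1.24 (adjusted p = 5.9e-05). For CD14, LY96 rose by 1.88 against the cross-breed controls (adjusted p = 0.00085) and LBP, the plasma protein that hands lipopolysaccharide to CD14, fell by 1.83 (adjusted p = 0.00016), whereas TLR4 had 0.18 (adjusted p = 0.567). For FGD2, the relative FGD1 was higher against both control sets, by 1.18 (adjusted p = 0.000813) and 1.30 (adjusted p = 0.000452), and FGD5, which is known from endothelial cells, fell by 1.35 against the Holstein controls (adjusted p = 0.00072). CDC42, the target of FGD2 and brightest gene of the list, differed by 0.01 (SE 0.13) within slides and was not called in any of the 4 comparisons. For CLEC12A, the phosphatases PTPN6 and PTPN11, which bind its inhibitory motif, were not called in any of the 4 comparisons either. Within slides 16 of the 20 partners that passed the filter were below 0, with a median of -0.26 and 0 called. Against the cross-breed controls 4 of the 20 were called higher, beside 14.4% of all probes, and 3 lower, beside 13.8%. The counts were 1 higher, beside 8.4%, and 4 lower, beside 9.41%, against the Holstein controls.

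The levels of the members also varied within the groups. After the mean of each of the 4 labelled groups was subtracted, the probes whose pattern over the 43 arrays was most like that of CD48 were CD53 (Pearson r = 0.952), SRGN (0.944), LCP1 (0.931), CD3G (0.918) and ITGB2 (0.917). The Spearman coefficient of CD48 with CD53 was 0.943, and Pearson r was 0.938 without C17 and 78, the 2 animals farthest from the median of CD48. For CLEC12A the most similar probes were the chemokine receptor CCR1 (0.866), an unidentified transcript (AW483566, 0.853), IFI30 (0.821), CD163 (0.817) and RNASE6 (0.810). For FGD2 they were IRF5 (0.860), ARHGAP26 (0.854), the probe listed under the gene ID of SPI1 but described as SPIB (0.853), C1QC (0.844) and TNFAIP8L2 (0.838). The leading coefficients fell to 0.851 for CLEC12A without animals 52 and C44 and to 0.798 for FGD2 without 265 and 78. These coefficients are a description over 43 arrays that share slides and scan days, and carry no p.

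With the 61 leukocyte list genes, the median coefficient was 0.575 for CD48, 0.553 for PTPRC, 0.474 for FGD2, 0.442 for CD68, 0.416 for CLEC12A, 0.389 for CD3E and 0.244 for CD14. With all probes the 7 medians lay between -0.0189 and 0.00832. CD14 had 7 of the 61 genes above 0.5, beside 6.42% of all probes, while CD48 had 38 of 61, beside 2.41%. CD14 was also the member whose signal varied most with the share of spots well above background on the array (r = 0.432), and the other 6 had coefficients between -0.216 and 0.124.

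Of the lists for other cell types, that of fibroblasts was also low within slides. All 6 fibroblast genes were below 0 in the positive animals, with a median of -1.12, -0.84 without animal 78, and 0 called, and DCN, the matrix proteoglycan decorin, was the brightest. The mean signal of the fibroblast list was 10.21 in S21, 10.39 in S54, 9.53 in S56 and 8.86 in S57, against 10.30 in 50, 12.18 in 78, 11.09 in 79 and 10.51 in 81. Among these 8 animals S57 and S56 were thus lowest for this list as well as for CD48 and FGD2, and 78 was highest. Against the Holstein controls 5 of the 6 were called lower, beside 9.41% of all probes, with COL3A1 falling by 3.29 (adjusted p = 9.61e-06). Against the cross-breed controls 3 of the 6 were called lower, beside 13.8%. Endothelial genes had a median of -0.13 within slides, muscle fibre genes of 0.03, adipocyte genes of 0.12 and red cell genes of 0.45. The part that the amount of connective tissue in the sample had in the leukocyte differences was not tested.

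**Figure D5:**
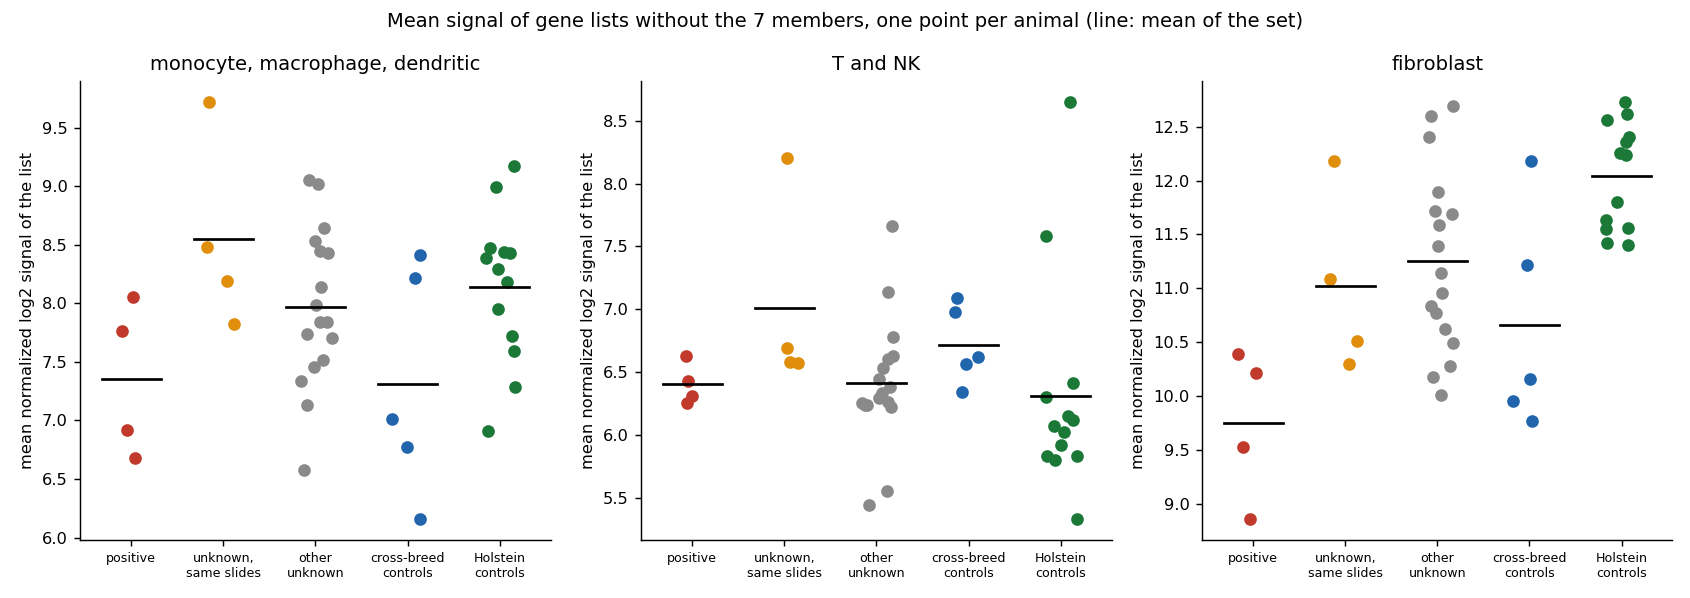
Mean normalized log2 signal (y axis) of the monocyte, macrophage and dendritic genes, the T and NK genes and the fibroblast genes, without the 7 members, 1 point per animal in 5 sets with lines at the means. For the first list the 4 positive animals lie at 8.05 or lower, inside the range of the cross-breed controls, 6.16 to 8.41. They lie at 10.39 or lower for the fibroblast list, whose Holstein values begin at 11.40.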

How the data were processed

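Biceps brachii RNA of 43 animals was labelled with 1 dye and hybridised to Agilent bovine arrays. Per the file headers, the deposited intensity values are processed signals of Agilent Feature Extraction, which the authors background-subtracted, 1 file for each array, and the table of the whole series holds the authors' processed intensity values, used as an alternative only. Starting from the deposited processed signals, log2 values were normalized over the 43 arrays by cyclic loess and the spots of a probe averaged without spots marked as outliers. Probes under 4 on at least 30 arrays were left out, which kept 16360 probes. Differences were fitted with limma 3.58.1 in R 4.3.3 and checked on simulated data. A probe was called at a Benjamini-Hochberg adjusted p under 0.05 over all probes and at least a 2-fold change. The 4 positive animals were set against 5 cross-breed controls, against 13 Holstein controls and, with slide as a block, against the 4 unknown animals on their slides, and the 21 unknown animals were set against the Holstein controls.

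Groups followed the GEO status labels, breed came from the study's methods, and the histological and urine status from its account of the 4 animals. Probes were named from the gene ID, accession or description in the files through RefSeq symbols, and for a gene with several probes the brightest was used. The members and the gene lists were chosen with earlier results of these data known. Of each list, up to 4 called genes in each direction by size (only if all arrays of the brighter group had it well above background) and the brightest gene were named, with the partners of the members and the 5 probes most like CLEC12A, FGD2 and CD48, except 1 gene that is not reported here. The number of arrays limits the precision. Alternatives were 75th percentile scaling, quantile normalization, cyclic loess on every pair of arrays, normexp background correction with an offset of 50, the authors' table, 2 other filters, a common fit of all arrays, slide or scan day as a random block, and leaving out single animals or sets of unknown animals. The fit without C17 was added after seeing the data.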

Additional observations from a re-analysis of the deposited data

Results flagged for a closer look

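In the set of 4 unknown animals that shared slides with the positive animals, animal 78 stood apart from the other 3 for CD3E and for CD68. Its CD3E signal was 9.68, and the nearest of the set was 7.42. Its CD68 signal was 6.21, and the nearest of the set was 4.99. In all, 21 groups of 4 or 5 animals were looked at in this way, and chance alone marks about 1 in 20. Animal 78 was 1 of the 4 against which the positive animals were read within slides. Without it the difference within slides was -0.59 for CD3E.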

How the results depend on the processing

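The positive animals remained below the unknown animals of their slides for CLEC12A, FGD2, CD48, PTPRC, CD14 and CD3E under all 17 alternatives, and below the Holstein controls for CLEC12A, FGD2, CD48, PTPRC and CD14 under all 15. Within slides the difference of CD68 was above 0 in 2 of 17, at 0.25 with quantile normalization and 0.08 without animal 78. The difference of CD68 between unknown and Holstein animals reversed to -0.85 with pairwise cyclic loess. Scaling moved the median of all probes. Between positive and Holstein animals it was -0.05 as reported, 0.19 with 75th percentile scaling and -0.28 with pairwise loess, and the share of called probes that were higher was 47.2%, 82.8% and 27.9%, with 35.9% after quantile normalization. For the cross-breed controls the share was 51.1% as reported, 69.1% with percentile scaling, 39% with quantile and 33.3% with pairwise loess, and for unknown against Holstein animals 30.7%, 65.8% with percentile scaling, 17% with pairwise loess and 20.2% with normexp.

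Probes called numbered 4602 against the cross-breed controls, and 1357 with normexp, 2960 with the authors' table and 7584 with no filter. Against the Holstein controls they were 2914, and 5613 with pairwise loess, 460 with normexp, 1767 with the authors' table and 5840 with no filter. For unknown against Holstein animals they were 1819, and 573 with normexp, 1034 with the authors' table, 1148 with slide and 569 with scan day as a random block. The cause of these shifts was not tested.

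Leukocyte list genes, members included, were called lower against the cross-breed controls 9 times, and 15 with quantile, 19 with pairwise loess, 2 with normexp, 5 with a common fit and 8 to 14 when 1 animal was left out (14 without K12). Called higher were 10, and 3 with pairwise loess, 1 with normexp and 2 with the authors' table. Against the Holstein controls 11 were lower, and 7 with percentile scaling, 19 with quantile, 32 with pairwise loess, 1 with normexp, 17 with no filter, 7 with scan day as a random block and 5 to 10 when 1 animal was left out (5 without S56 and 5 without S57). There 5 were higher, and 10 with percentile scaling, with no filter or with the filter on signal above background, and 0 with pairwise loess, normexp or the authors' table. Within slides 0 probes were called, 0 to 9 when 1 animal was left out (9 without animal 79), and 0 to 4 list genes were then called lower. For unknown against Holstein animals 1 list gene was lower, and 7 with pairwise loess, 0 with normexp or scan day as a random block, and 2 with no filter or without the 4 unknown animals of the shared slides. There 2 were higher, and 5 with percentile scaling, 0 with normexp, and 1 with the authors' table, slide or scan day as a random block. Without C17, an alternative chosen after seeing the data, 1820 probes were called for unknown against Holstein animals and 2904 for positive against Holstein animals. No paired analysis was possible because the replicate numbers are names of animals and the groups compared share at most 1 of them. CLEC12A and CD68 were dim, and 13 Holstein, 5 cross-breed and 4 positive animals limit what could be detected.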

Other observations

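Genes known to be induced by glucocorticoids were read beside the leukocyte genes. In the positive animals 14 of 14 were below the Holstein level, with a median log2 difference of -0.78 beside -0.05 for all probes. Of the 14, 6 were called lower, beside 9.41% of all probes. FKBP5, a co-chaperone of the glucocorticoid receptor, fell by 2.19 (SE 0.28, limma adjusted p = 1.18e-05), PDK4, the kinase that shuts down pyruvate dehydrogenase, by 2.01 (SE 0.28, adjusted p = 3.85e-05) and CD163, a scavenger receptor that is also on the macrophage list, by 2.26 (SE 0.47, adjusted p = 0.0013). With 75th percentile scaling 11 of the 14 were below 0, and the median stayed below 0 with each of the 5 other ways of normalizing or correcting the values. Against the cross-breed controls 2 of the 14 were called higher, beside 14.4% of all probes, and 1 lower, beside 13.8%. These counts are not read as a change of the list. The median of the 14 against the cross-breed controls was -0.18, beside -0.03 for all probes. The mean signal of the list was 10.21 in the positive animals, 10.32 in the untreated cross-breed and 11.2 in the Holstein controls. Both the positive and the cross-breed animals were thus below the Holstein level. PDK4 rose by 1.19 (adjusted p = 0.00925) and TSC22D3, which encodes the glucocorticoid-induced leucine zipper, by 1.75 (adjusted p = 0.000629), although TSC22D3 was well above background on both spots of 1 of the 5 cross-breed arrays. DUSP1, a phosphatase of MAP kinases, fell by 1.88 (adjusted p = 0.00212). The difference of PDK4 thus had opposite signs against the 2 control sets. Within slides 13 of the 14 were below 0 with a median of -0.71, and limma called 0, with 8 at an unadjusted p under 0.05. Between unknown and Holstein animals TSC22D3 was the 1 gene called, and it fell by 1.67 (adjusted p = 8.98e-05), beside 7.71% of all probes called lower.

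Of the 8 endothelial genes, 5 were called higher than in the cross-breed controls, beside 14.4% of all probes, and 4 than in the Holstein controls, beside 8.4%. Against the Holstein controls VWF, a clotting factor made by endothelial cells, rose by 2.36 (adjusted p = 0.000203) and KDR, a receptor of VEGF, by 1.54 (adjusted p = 3.43e-05). In the unknown animals 3 of the 8 were called higher than in the Holstein controls, beside 3.41%. Of 4 adipocyte genes, 3 were called higher than in the cross-breed controls, beside 14.4%. FABP4, the fatty acid carrier of fat cells, rose by 5.23 (adjusted p = 0.000262), and was well above background on both spots of 3 of the 5 cross-breed arrays, and CIDEC, a protein of lipid droplets, rose by 4.09 (adjusted p = 7.69e-05). Against the Holstein controls FABP4 differed by 0.21 (SE 0.67, adjusted p = 0.83) and CIDEC by 0.38 (SE 0.65, adjusted p = 0.678). Of the 3 red cell genes that passed the filter, HBA rose by 1.71 against the cross-breed controls (adjusted p = 0.000178) and differed by 0.04 from the Holstein controls (SE 0.42, adjusted p = 0.949). Among 9 muscle fibre genes, ACTA1, the skeletal muscle actin, rose by 1.39 against the cross-breed controls (adjusted p = 0.000245) and TNNT3, the troponin T of fast fibres, fell by 2.72 (adjusted p = 0.00203). The median of the muscle fibre list against these controls was -0.18, with 0.29 under 75th percentile scaling and -1.17 under cyclic loess on every pair of arrays, where 5 of the 9 were called lower and ACTA1 was no longer called higher. Slide and scan day went with the groups in every comparison with control animals, and scanner in those with the cross-breed controls, and they cannot be told apart from them.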
